A study of Mus musculus with 16 samples.

Results

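The data concern 32 genes that mark lymphocytes and lymph node vessels, read in the mammary glands of socially isolated and group-housed mice. Members were the probe sets (groups of short oligonucleotides that each report a transcript) whose single gene symbol is on that list. Of the 32 genes, 30 were measured, by 56 of the 45101 probe sets, and Lck and Tcf7 had no probe set carrying that symbol alone. Each of the 18193 genes of the array was represented by its probe set with the highest mean over 16 arrays, and levels are log2 values, so that a difference of 1 is a doubling.

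The mice were FVB/N females homozygous for SV40 large T antigen, driven by the C3(1) fragment of the promoter of a rat prostatic steroid binding protein gene. This transgene, carried by every group, gives rise to mammary tumours. From weaning at 3 weeks the mice were first kept with sisters, and after an open field test at 3.5 weeks they lived alone (isolated) or in groups (grouped). Total RNA came from the thoracic gland at 15 or 20 weeks, from animals killed in estrus 6 h into the dark phase, with 4 arrays for each housing and age. No label says that the 4 arrays of a group come from 4 different mice, so the spread behind each p-value may be technical. The overall distribution of values differed between ages, with lower quartiles per array of 6.76 to 6.79 at 15 weeks and 6.98 to 7.04 at 20 weeks. Each age may have been processed in its own run, and age and such a run could not be told apart. Of the tissue markers, luminal epithelial genes averaged 11.41 to 12.04 (log2) per array, adipocyte genes 10.35 to 12.77 and skeletal muscle genes 12.83 to 14.14, so the samples held gland, fat and muscle. In whole tissue, fewer cells of a type and less RNA per cell cannot be told apart.

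A lymph node is a packed mass of T and B cells, and mouse mammary fat pads can enclose or adjoin nodes. T cells read antigen through a receptor coupled to the CD3 chains, with CD4 or CD8 as co-receptor, and B cells through membrane immunoglobulin coupled to CD79A and CD79B. Both enter nodes through high endothelial venules, whose lining carries sulfated mucins such as GlyCAM-1 that bind L-selectin on lymphocytes. The mammary epithelium also secretes GlyCAM-1 into milk, so Glycam1 RNA has more than a single possible source in a gland. Plasma cells are the antibody-secreting end stage of B cells, and in the mammary gland many of them make IgA that is joined by the J chain.

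The regions upstream of 4 member genes are printed because these genes were high in the same arrays, and because Cd3g and Cd3d lie head to head, with start sites 1355 bases apart on mouse chromosome 9. Each is the 250 bases before the annotated start in RefSeq on GRCm38.p6, written 5′ to 3′ on the gene's own strand. Glycam1 lies at chr15:103565082-103565331 (minus strand), Cd79a at chr7:24897247-24897496 (plus), Cd3d at chr9:44981536-44981785 (plus) and Cd3g at chr9:44980432-44980681 (minus). Capitals mark GAGGAA or its reverse complement TTCCTC, letters found in many binding sites of Ets family factors, and both strands were searched.
Glycam1: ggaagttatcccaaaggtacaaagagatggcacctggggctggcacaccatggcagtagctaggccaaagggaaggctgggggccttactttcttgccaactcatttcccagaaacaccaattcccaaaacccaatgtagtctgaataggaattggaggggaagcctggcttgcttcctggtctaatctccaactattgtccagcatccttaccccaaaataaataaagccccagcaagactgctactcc
Cd79a: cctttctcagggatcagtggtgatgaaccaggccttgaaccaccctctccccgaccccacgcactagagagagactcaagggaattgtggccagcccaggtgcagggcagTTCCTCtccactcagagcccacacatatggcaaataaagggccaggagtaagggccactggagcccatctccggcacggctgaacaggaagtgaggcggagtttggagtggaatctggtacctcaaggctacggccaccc
Cd3d: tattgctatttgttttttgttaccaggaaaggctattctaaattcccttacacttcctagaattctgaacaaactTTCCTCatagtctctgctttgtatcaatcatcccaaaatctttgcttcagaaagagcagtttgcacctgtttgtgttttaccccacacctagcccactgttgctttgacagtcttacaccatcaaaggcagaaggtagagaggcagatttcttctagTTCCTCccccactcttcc
Cd3g: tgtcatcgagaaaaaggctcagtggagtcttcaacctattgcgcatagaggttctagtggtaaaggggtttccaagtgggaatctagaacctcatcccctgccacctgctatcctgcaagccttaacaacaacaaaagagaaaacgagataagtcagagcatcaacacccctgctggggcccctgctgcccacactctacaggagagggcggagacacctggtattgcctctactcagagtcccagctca
A match began 140 bases before the start of Cd79a, and matches began 175 and 18 bases before the start of Cd3d. Glycam1 and Cd3g had no match in these 250 bases. Over the 23 of 32 members with an entry in the table, 12 of 30 windows (40%) held a match, against 23.3% of 32851 windows of all genes. A match describes letters, not binding.

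In 2 of the 16 arrays, lymphocyte genes and Glycam1 stood far above the other arrays: grouped 15 weeks replicate 1 and isolated 20 weeks replicate 3. They are called the lymphocyte-rich arrays here. They were recognised after the data were seen, from Glycam1, Ms4a1 and Cd3g, and the counts that follow describe them without a test. At 15 weeks, 26 of 30 members were highest in the first of them among the 8 arrays of that age, against 11.8% of all genes. At 20 weeks, 25 of 30 were highest in the other, against 12.5% of all genes. Without the 3 genes used to recognise them, the counts were 23 and 22 of 27. In each of the other 14 arrays, 0 to 2 members were highest.

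**Figure D1:**
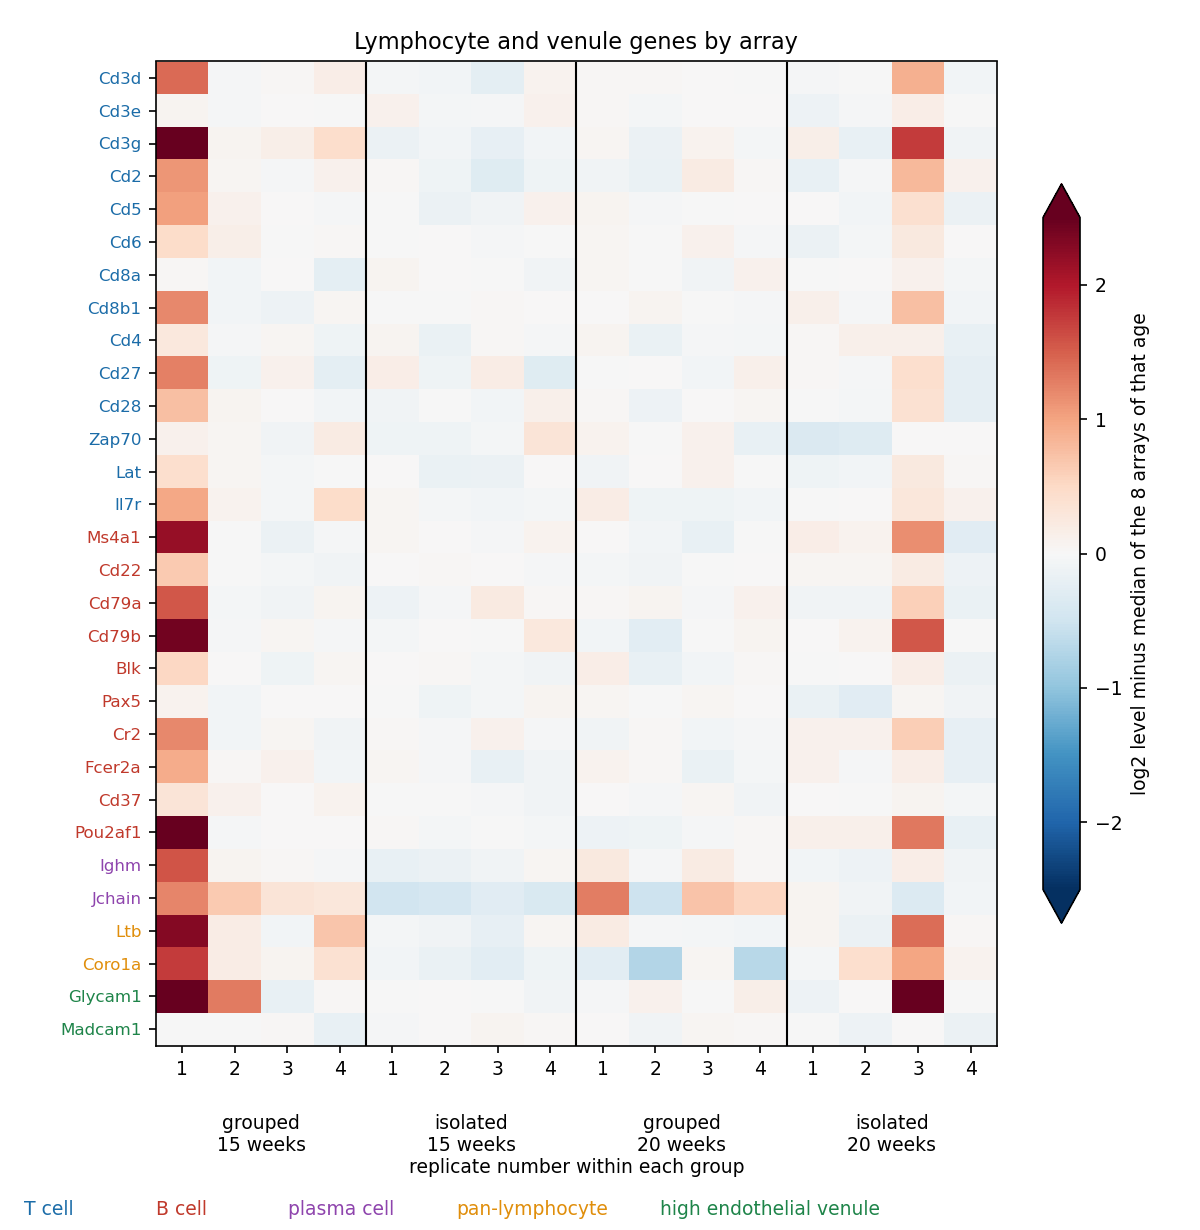
Heat map of the log2 level of 30 member genes (rows, coloured by cell type) in 16 arrays (columns, by group and replicate), as the difference from the median of the 8 arrays of the same age. Grouped 15 weeks replicate 1 and isolated 20 weeks replicate 3 are red over most rows, while Jchain, Coro1a and Glycam1 also vary among other arrays.

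Excess is used below for an array's log2 level minus the median of the other 7 arrays of its age. The median excess over the members was 1.09 in grouped 15 weeks replicate 1 and 0.34 in isolated 20 weeks replicate 3, against -0.01 and 0.01 over all genes. An excess above 1 was found for 17 and 7 of the 30 members, against 0.385% and 0.72% of all genes. The first array had the larger excess for 27 of 30 members.

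Glycam1 had the widest range of any member. At 15 weeks it read 13.09, 9.12, 7.65 and 7.85 in grouped replicates 1 to 4 and 7.82, 7.85, 7.82 and 7.74 in the isolated ones. At 20 weeks it read 7.47, 7.6, 7.48 and 7.65 in grouped and 7.38, 7.51, 11.54 and 7.5 in isolated arrays. The excess of 5.27 (38.5-fold) ranked 1 among all 18193 genes in grouped 15 weeks replicate 1, and that of 4.04 (16.5-fold) ranked 2 in isolated 20 weeks replicate 3. Apart from those arrays, only grouped 15 weeks replicate 2 lay outside 7.38 to 7.85.

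Milk genes did not follow Glycam1 in the lymphocyte-rich arrays. Of 6 milk genes, 0 were highest of their age in either array, with median excesses of -0.15 and -0.56. Csn2, which encodes beta-casein, read 11.57 in grouped 15 weeks replicate 1, within the 11.13 to 12.02 of the 15-week arrays other than grouped replicate 2. It read 6.21 in isolated 20 weeks replicate 3, the lowest of the 16 arrays, where the other isolated arrays of that age read 6.31 to 7.64. Grouped 15 weeks replicate 2, whose Glycam1 was 9.12, had the highest Csn2 (12.93), Csn1s2a (12.47) and Wap (8.88) of its age. Csn1s1 (12.53) and Lalba (9.49) were also highest there, while Csn3 (11.3) was not (up to 11.55 at that age). The mean of the 10 B cell members in grouped 15 weeks replicate 2 was 7.34. This lay inside the 7.34 to 7.36 of the other 15-week arrays that were not lymphocyte-rich. Its T cell members averaged 7.97, inside the 7.88 to 8.01 of those arrays. Its plasma cell members averaged 10.28, above their 9.58 to 10.09. The raised Glycam1 of that single array stood beside raised milk genes and plasma cell members. That of the lymphocyte-rich arrays stood beside raised B and T cell members. The source of the Glycam1 RNA was not tested in any array.

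**Figure D2:**
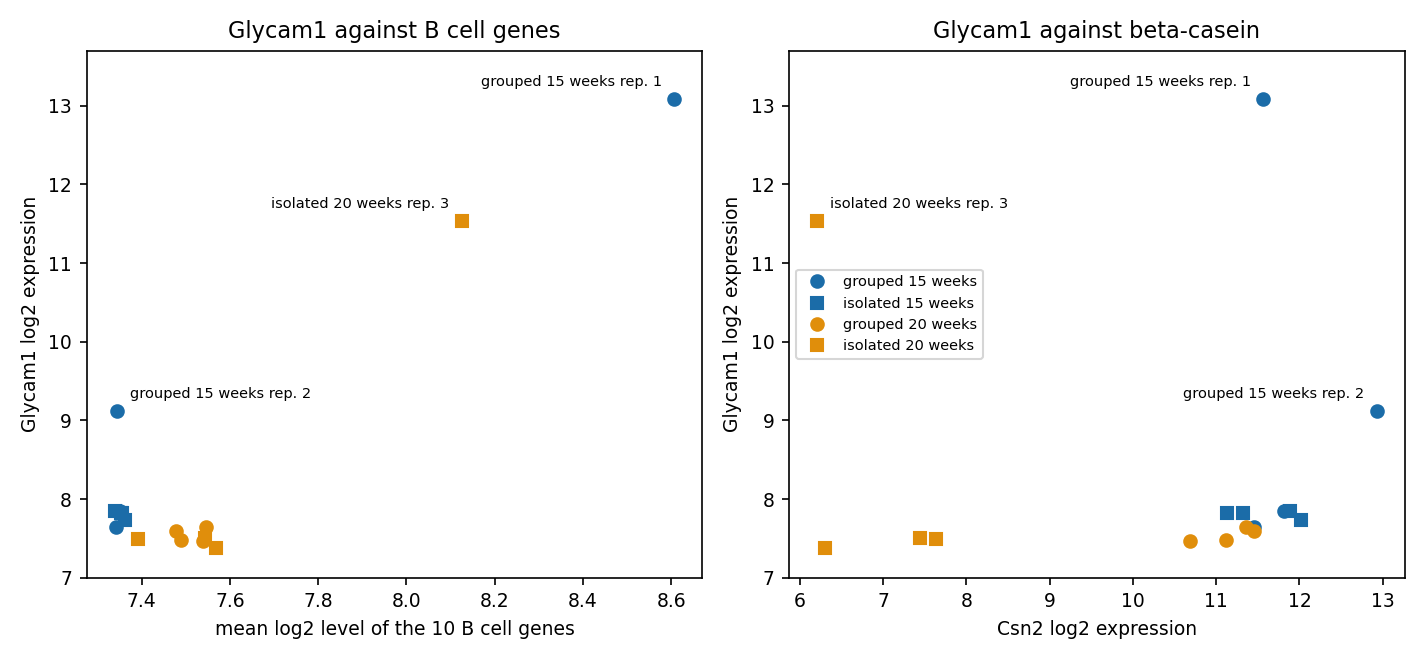
Glycam1 log2 level in 16 arrays against the mean log2 level of the 10 B cell members (left) and against Csn2 (right), with colour for age and shape for housing. The arrays with Glycam1 at 13.09 and 11.54 had the highest B cell means (8.61 and 8.13), and the array at 9.12 had the highest Csn2 (12.93).

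Other genes listed under high endothelial venules and node stroma differed far less. Madcam1 encodes a mucosal addressin and is listed here under such venules. It read 7.11 in grouped 15 weeks replicate 1 (6.94 to 7.2 in the other 7 arrays) and 7.66 in isolated 20 weeks replicate 3 (7.49 to 7.68). Chst4, which sulfates the venule mucins, had an excess of 0.07 in each. Cxcl13, the stromal chemokine that draws B cells into follicles, read 10.46 against 9.76 to 10.1 at 15 weeks, and 10.2 against 9.8 to 10.46 at 20 weeks. Of a list of 7 node stroma and vessel genes outside the members, only Chst4 and Cxcl13 were measured. A rule that called an array node-bearing when their mean lay 0.5 above the median of its age was met by 0 of 16 arrays, with a largest difference of 0.28. Chst4 and Madcam1 lay below the median of all probe sets in every array (8.09 to 8.11 at 15 and 8.31 to 8.34 at 20 weeks). Chst4 hardly varied within an age, so the rule rested mostly on Cxcl13 and could not decide whether an array held node tissue. Whether node tissue was in these samples was not tested.

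Of the 10 B cell members, 10 were highest in each lymphocyte-rich array. Ms4a1, which encodes CD20, read 9.51 in grouped 15 weeks replicate 1 against 7.2 to 7.41 in the other 7 arrays, and 8.75 in isolated 20 weeks replicate 3 against 7.31 to 7.76. Its other probe set lay at 7.93 and 7.07 in these arrays and between 4.38 and 4.52 in the remaining 14. Cd79b, a chain of the B cell receptor, read 8.1 against 5.64 to 5.95 and 7.63 against 5.8 to 6.16. Its partner Cd79a read 9.02 against 7.34 to 7.7 and 8.1 against 7.33 to 7.61. Pou2af1, a B cell transcription coactivator, read 7.99 against 5.25 to 5.34 and 7.05 against 5.55 to 5.87. In each of these genes, no other array reached the level of either lymphocyte-rich array.

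The remaining B cell members had smaller excesses. They were 1.22 and 0.64 for the complement receptor Cr2, 0.96 and 0.19 for the IgE receptor Fcer2a, 0.66 and 0.21 for the inhibitory receptor Cd22, and 0.51 and 0.17 for the kinase Blk. The tetraspanin Cd37 (0.32 and 0.07) and the lineage factor Pax5 (0.1 and 0.05) had the smallest. The probe sets of Cd37 disagreed at 20 weeks, where the other read 8.7 in isolated replicate 3 against 7.62 to 8.25, an excess of 0.83. On the tested probe sets, the B cell members thus ranged from 0.1 to 2.69 in grouped 15 weeks replicate 1, although all are listed under B cells. The other probe set of Ms4a1 had an excess of 3.47 there.

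Among the 14 T cell members, 11 and 12 were highest in the respective arrays. The CD3 chains differed. Cd3g read 9.29 against 6.57 to 7.21 at 15 weeks and 8.45 against 6.52 to 6.85 at 20 weeks, and Cd3d 8.51 against 6.85 to 7.26 and 8.09 against 7.14 to 7.23. Cd3e read 9.83, inside the 9.71 to 9.87 of the others, and 10.07 against 9.78 to 9.93. The co-receptor chain Cd8b1 had excesses of 1.21 and 0.77, the adhesion receptor Cd2 of 1.14 and 0.84, and the co-stimulatory receptor Cd27 of 1.35 and 0.43.

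Excesses were 1.04 and 0.4 for the inhibitory receptor Cd5, 1.0 and 0.29 for the interleukin-7 receptor Il7r, and 0.77 and 0.39 for the co-stimulatory receptor Cd28. They were 0.46 and 0.25 for Cd6, 0.43 and 0.26 for the adaptor Lat and 0.3 and 0.16 for Cd4. For the kinase Zap70 they were 0.16 and 0.0, and for Cd8a 0.04 and 0.11. In some of these genes the probe sets disagreed. Of the 5 probe sets of Cd8a, 2 had an excess above 0.5 in grouped 15 weeks replicate 1, and the larger of these read 8.55 there against 7.48 to 7.72. Over all 56 member probe sets, 46 were highest in grouped 15 weeks replicate 1 and 42 in isolated 20 weeks replicate 3.

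The plasma cell members separated the lymphocyte-rich arrays. Ighm, the immunoglobulin heavy chain of IgM, read 11.91 in grouped 15 weeks replicate 1 against 10.14 to 10.41, and 10.54 in isolated 20 weeks replicate 3, within 10.25 to 10.62. Its 11 probe sets disagreed, with an excess above 0.5 in 6 of them in the first array and in 2 in the other. Jchain read 10.72 in the first, the highest of its age, and 8.4 in the other, below the median of its age by 0.4. Jchain and Ighm are the only members listed under plasma cells, and Ighm is also made by B cells.

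Of the genes listed as shared by lymphocytes, Ltb encodes lymphotoxin beta, which organises lymphoid tissue. It read 9.71 against 7.22 to 8.1 and 9.13 against 7.59 to 7.94. Coro1a encodes an actin-binding protein of all leukocytes, including macrophages. It read 11.66 against 9.65 to 10.31 and 11.29 against 9.56 to 10.72.

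**Figure D3:**
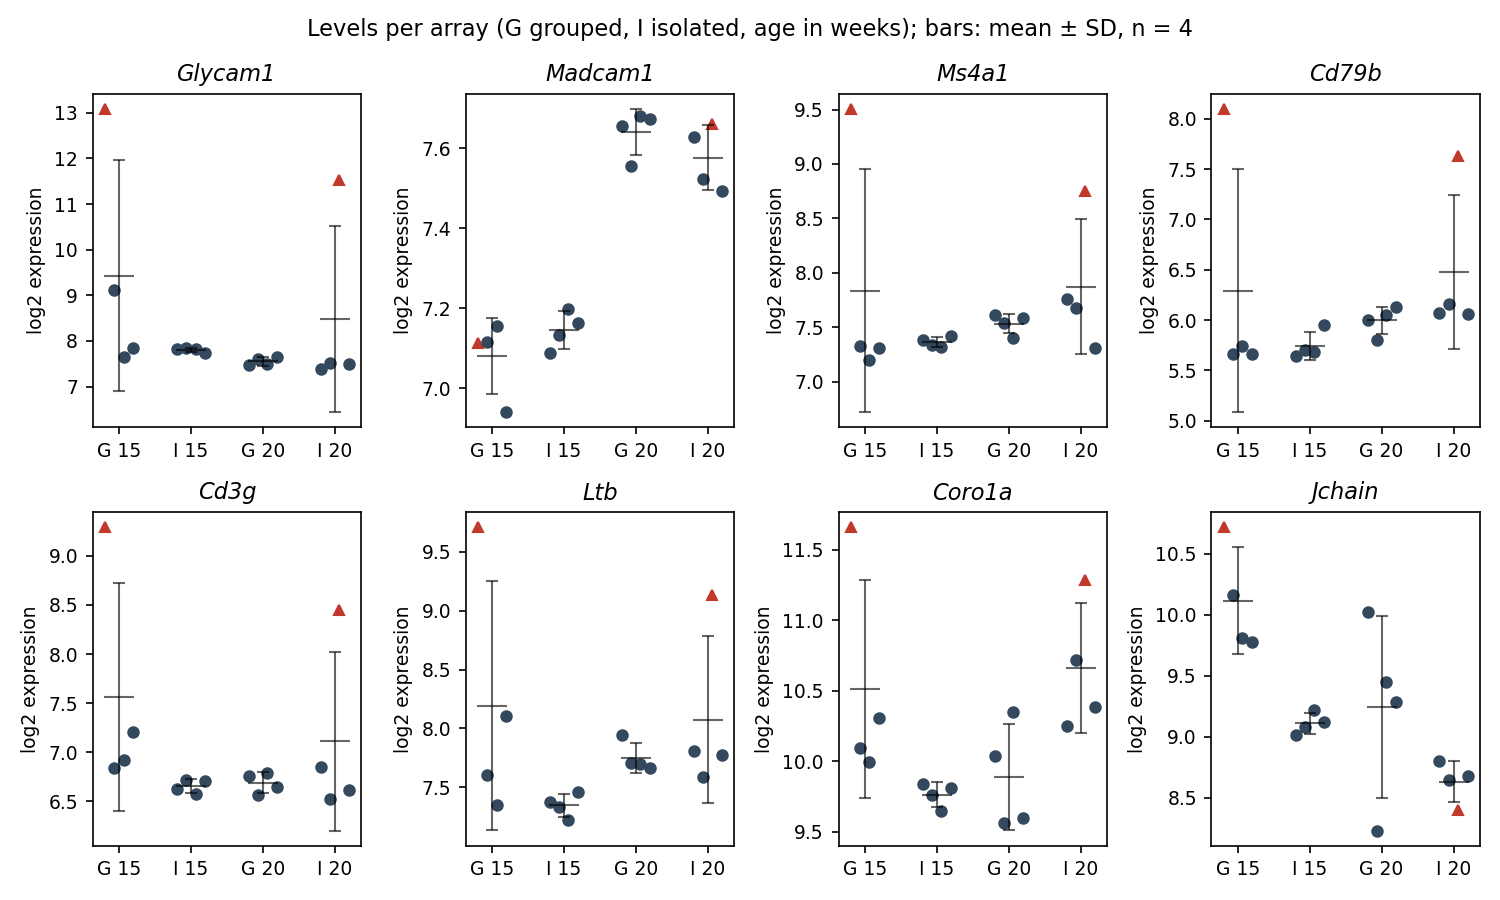
Log2 level of 8 member genes per array in each housing and age group (G grouped, I isolated), with mean and SD over 4 arrays; red triangles are grouped 15 weeks replicate 1 and isolated 20 weeks replicate 3. Glycam1, Ms4a1, Cd79b, Cd3g, Ltb and Coro1a are highest of their age in the triangles, Madcam1 is higher at 20 than at 15 weeks in every array, and Jchain is lower in every isolated than in every grouped array at 15 weeks.

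Lymphocyte genes outside the members were read from lists that were also written with earlier results known. Of 7 homing receptor genes, 6 were highest in each lymphocyte-rich array. Ccr7, the receptor that guides T cells and dendritic cells into nodes, read 9.28 against 7.24 to 7.9 at 15 weeks and 8.35 against 6.98 to 7.57 at 20 weeks. Of 12 B cell signalling and identity genes, 10 and 7 were highest in the respective arrays, and of 15 T cell receptor signalling genes 10 and 7. The IgM Fc receptor Fcmr read 9.64 against 7.46 to 7.69 and 8.55 against 7.72 to 7.97.

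Other lists of lymphocyte states differed among themselves. Of 5 germinal centre genes, 0 and 1 were highest, and of 8 regulatory and helper T cell genes 2 and 2. Of 9 plasma cell genes other than the members, 2 and 2 were highest. Of 11 cytotoxic and natural killer genes, 6 and 6 were highest, with median excesses of 0.14 and 0.22. Their mean was 8.14 against 7.83 to 8.04 at 15 weeks and 8.08 against 7.8 to 7.89 at 20 weeks. Ccl5, a chemokine made by cytotoxic T cells, had excesses of 1.05 and 0.94.

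Some non-lymphocyte genes were raised in the same arrays. The 4 neutrophil genes averaged 9.35 in grouped 15 weeks replicate 1 against 7.6 to 8.42, and 9.46 in isolated 20 weeks replicate 3 against 8.29 to 8.87. S100a8, a calcium-binding protein abundant in neutrophils, read 10.18 against 6.44 to 9.15 and 10.08 against 7.77 to 8.98. S100a8 (excesses of 3.48 and 1.73) and S100a9 (2.79 and 1.58) carried most of that rise. The excesses were 0.26 and 0.27 for Csf3r, and 0.01 and 0.1 for Cxcr2. The 10 macrophage genes averaged 11.66 against 10.95 to 11.59 and 11.96 against 10.74 to 11.92. The luminal epithelial genes were lowest of their age in each of these arrays (11.41 against 11.52 to 11.68, and 11.58 against 11.62 to 12.04), and adipocyte genes were lowest in the first (11.92 against 12.17 to 12.77). The part of these cell types in the member values was not tested.

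The 50 genes of largest excess in each lymphocyte-rich array shared 9, which is 18% of each list. Of these, 3 were members (Glycam1, Cd3g and Cd79b), and 14 and 3 members stood in the respective lists. The 6 that were not members, named here after their values were seen, were Ighv14-2, S100a8, S100a9, Cd209b, Krt25 and Tchh. Ighv14-2, a variable segment of the immunoglobulin heavy chain, read 10.1 against 6.17 to 6.36 and 8.38 against 6.09 to 6.22. Cd209b, a lectin of macrophages in lymph node and spleen sinuses, read 11.81 against 8.87 to 9.95 and 11.02 against 8.71 to 10.46. Krt25 and Tchh, which encode proteins of the hair follicle root sheath, had excesses of 2.3 and 3.5, and of 2.08 and 3.92.

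**Figure D4:**
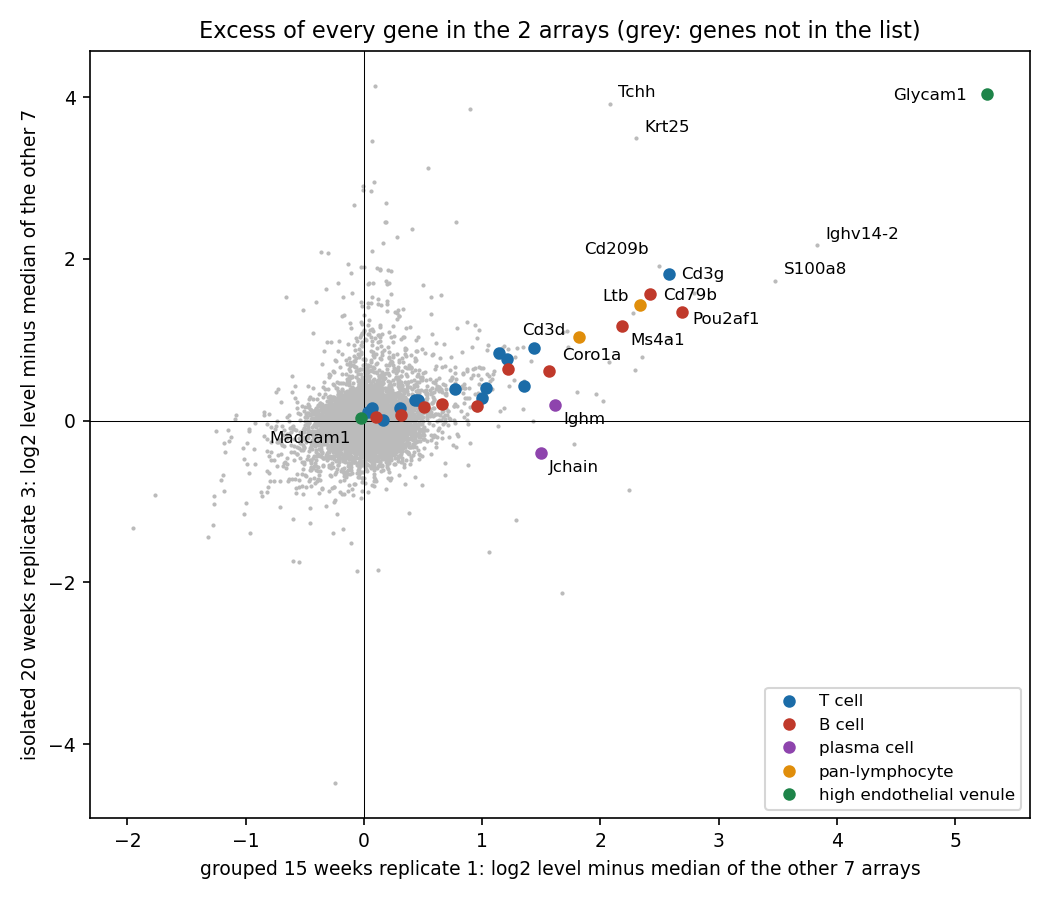
Excess of each of 18193 genes (log2 level minus the median of the other 7 arrays of the age) in grouped 15 weeks replicate 1 (x axis) and isolated 20 weeks replicate 3 (y axis), with members coloured by cell type. Glycam1 lies at 5.27 and 4.04, most members lie to the upper right, and Jchain lies at 1.49 and -0.4.

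The median spread of the members was wider in the groups that hold the lymphocyte-rich arrays. These arrays were picked for their high members, so a smaller spread without them follows from that choice. The median SD over the members was 0.48 in the grouped 15-week arrays and 0.08 without replicate 1, where that over all genes was 0.11. It was 0.22 in the isolated 20-week arrays and 0.09 without replicate 3, with 0.11 over all genes. In the isolated 15-week and grouped 20-week arrays it was 0.09 and 0.08, against 0.08 and 0.09 over all genes. Several members were near the floor of the array outside these libraries. The median level lay under the lower quartile of all probe sets for 6 members at 15 weeks (Cd2, Cd8b1, Cd27, Cd79b, Cr2 and Pou2af1), and at 20 weeks also for Cd3g and Cd28. Their fold differences there depend on background.

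The first housing comparison asked whether lymphocyte genes differed between isolated and grouped mice at 15 weeks. In the limma fit with Benjamini-Hochberg adjustment over all genes, 0 of 30 members passed an adjusted p of 0.05, where 0.022% of all genes passed in each direction. At an unadjusted p under 0.05 there were 3 of 30, where 9.7% of all genes lay under it. The sign was negative (lower in isolated) for 27 of 30 members, with a median log2 difference of -0.29 against -0.01 over all genes. Without grouped replicate 1, 19 of 30 were negative and the median was -0.03. Differences larger than 0.25 in size fell from 18 members to 5, and 8 members changed sign.

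By role, the B cell members had a median difference of -0.28 with all 8 arrays (10 of 10 negative) and of 0.02 without grouped replicate 1 (5 of 10). The T cell members went from -0.23 (12 of 14 negative) to -0.05 (9 of 14). Glycam1 differed by -1.62 (SE 0.96, adjusted p = 0.583 in limma) and, without that array, by -0.4 (SE 0.28, adjusted p = 0.607). Cd3g moved from -0.91 (SE 0.44) to -0.33 (SE 0.09, adjusted p = 0.24). Glycam1 and Cd3g helped to recognise that array, so their p-values without it are not independent tests. Outside the members, 7 of 7 homing receptor genes were negative with all arrays (median -0.17) and 6 of 7 without it (median -0.05).

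Jchain had the smallest p of the members at 15 weeks. It read 10.72, 10.16, 9.81 and 9.77 in the grouped and 9.01, 9.08, 9.22 and 9.12 in the isolated arrays, so the groups did not overlap. The means were 10.12 ± 0.44 and 9.11 ± 0.09 (SD, n = 4 arrays each). The difference was -1.01 (SE 0.18), 2.01-fold lower in isolated mice, with an adjusted p of 0.101 in limma, which did not pass. Without grouped replicate 1 it was -0.81 (SE 0.1, 1.75-fold) and passed in limma (adjusted p = 0.0197), the only member that did, where 0.066% of all genes passed as lower and 0.022% as higher. It also passed without grouped replicate 3 (-1.11, adjusted p = 0.0433), where 0.0989% of all genes passed as lower. Over all alternatives its adjusted p in limma ran from 0.00264, with arrays weighted by quality (1.75% of all genes passing as lower), to 0.514, with all 16 arrays in the fit.

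Igha, the heavy chain of IgA that the J chain joins, was not a member. It read 11.41, 11.91, 11.83 and 11.48 in grouped and 11.1, 11.23, 11.27 and 11.19 in isolated arrays at 15 weeks. Its groups did not overlap either, and its difference of -0.46 (SE 0.11, adjusted p = 0.282 in limma) did not pass. Of the 9 plasma cell genes outside the members, 7 were negative, with a median of -0.11, and 0 passed.

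The other members with the smallest p at 15 weeks were Coro1a (-0.75, SE 0.3, adjusted p = 0.476), Cd37 (-0.16, SE 0.07, 0.509), Il7r (-0.39, SE 0.18, 0.514) and Ltb (-0.85, SE 0.41, 0.531), all in limma. Coro1a read 11.66, 10.1, 10 and 10.31 in grouped and 9.84, 9.76, 9.65 and 9.81 in isolated arrays, with no overlap. Without grouped replicate 1 it differed by -0.37 (SE 0.09, adjusted p = 0.202). The 10 macrophage genes were all negative at this age, with a median of -0.36 and 0 passing. In all, 4 members had groups that did not overlap, each lower in isolated mice (Cd3g, Cd37, Jchain and Coro1a), against 3.38% of all genes. Leaving out grouped replicate 1 cannot make such groups overlap, so these 4 had to remain. No other member joined them, where 7.51% of all genes then lay lower without overlap. Then 0 members lay higher without overlap, against 3.69% of all genes.

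**Figure D5:**
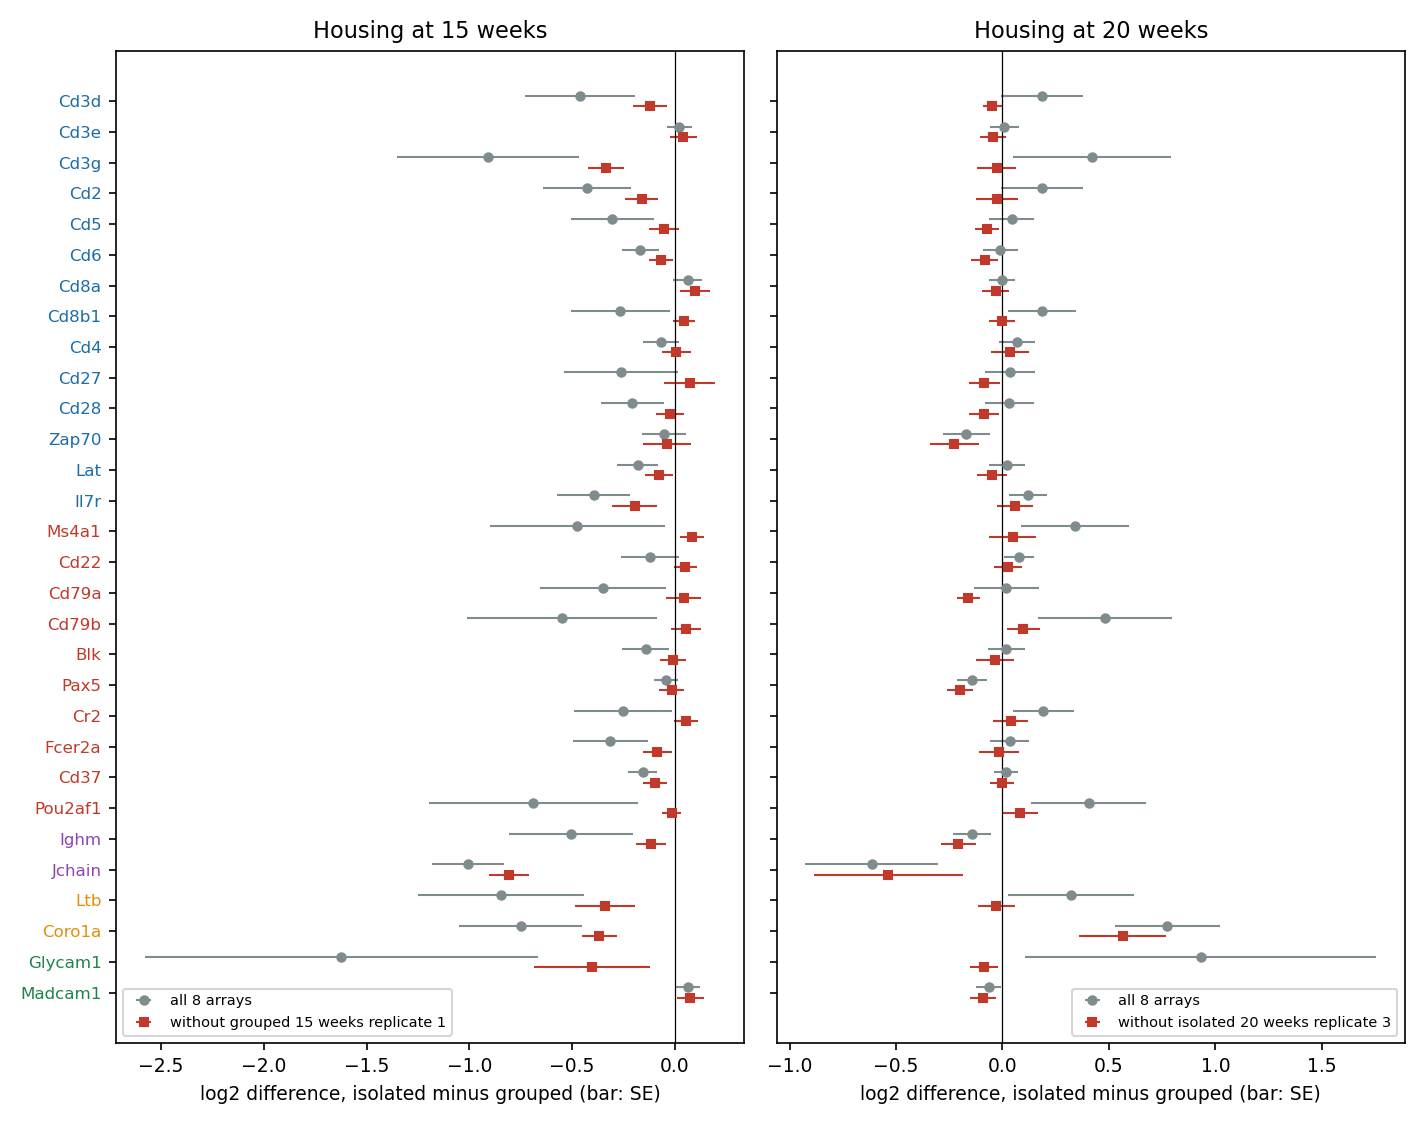
Log2 difference (isolated minus grouped, bar: SE from limma) of 30 members at 15 weeks (left) and 20 weeks (right), with all 8 arrays (grey circles) and without the lymphocyte-rich array of that age (red squares). At 15 weeks the median moves from -0.29 to -0.03 and Jchain from -1.01 to -0.81. At 20 weeks the median moves from 0.04 to -0.03 and Coro1a from 0.77 to 0.57.

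At 20 weeks the same comparison again gave 0 of 30 members past the threshold in limma, with 1 at an unadjusted p under 0.05 (8.49% of all genes). Of all genes, 0.0% passed as higher and 0.011% as lower. Of the members, 23 were positive (higher in isolated), with a median of 0.04 against -0.01 over all genes. Without isolated replicate 3, 8 were positive, the median was -0.03 and 15 members changed sign. Again 0 passed, with 4 at an unadjusted p under 0.05 (9.09% of all genes), where 0.0% of all genes passed as higher and 0.0055% as lower. The lymphocyte-rich array was in the grouped mice at 15 weeks and in the isolated mice at 20 weeks, and leaving it out moved the median up at 15 and down at 20 weeks.

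Coro1a had the smallest p at 20 weeks. It read 10.04, 9.56, 10.35 and 9.6 in grouped and 10.25, 10.72, 11.29 and 10.39 in isolated arrays. Isolated replicate 1 lay below grouped replicate 3, so the groups overlapped. The difference was 0.77 (SE 0.25, adjusted p = 0.534 in limma) and 0.57 (SE 0.2, adjusted p = 0.545) without isolated replicate 3. Beside it, the 10 macrophage genes were all positive at 20 weeks, with a median of 0.55, and 0.46 without that array. Their part in the Coro1a values was not tested.

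Jchain read 10.02, 8.23, 9.45 and 9.29 in grouped and 8.8, 8.65, 8.4 and 8.68 in isolated arrays at 20 weeks. Grouped replicate 2 lay below all isolated arrays, and it also had the lowest Igha of the grouped arrays (10.06, against 11.03 to 11.71 in the other 3). The groups overlapped, and the difference of -0.61 (SE 0.31) did not pass (adjusted p = 0.613 in limma). The other members with the smallest p were Pax5 (-0.14, SE 0.07, adjusted p = 0.61), Ighm (-0.14, SE 0.09, 0.666) and Zap70 (-0.17, SE 0.11, 0.669), also in limma. Glycam1 differed by 0.93 (SE 0.82) with all arrays and by -0.09 (SE 0.07) without isolated replicate 3. The number of members whose groups did not overlap was 0, against 2.21% of all genes higher and 2.0% lower. Without isolated replicate 3 it was 3, each lower in isolated mice (Cd79a, Pax5 and Ighm), against 4.99%, and 0 lay higher, against 3.63%.

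Whether the housing difference changed with age was tested as an interaction over all 16 arrays. In limma 0 of 30 members passed, with 2 at an unadjusted p under 0.05 (12.7% of all genes), where 0.0% and 0.011% of all genes passed as higher and lower. The median interaction over the members was 0.35, against -0.01 over all genes, and it was -0.02 without both lymphocyte-rich arrays, where 0.0% of all genes passed in either direction. The member with the smallest p was Coro1a, lower in isolated mice at 15 weeks and higher at 20 weeks. Its interaction was 1.52 (SE 0.43, adjusted p = 0.197 in limma) and 0.93 (SE 0.24, adjusted p = 0.265) without both arrays, and it passed only with weighted arrays (1.43, adjusted p = 0.0273), where 2.75% of all genes passed as higher. Next were Il7r (0.51, SE 0.22), Ltb (1.17, SE 0.56), Cd3g (1.33, SE 0.65) and Cd37 (0.17, SE 0.09), with adjusted p of 0.35, 0.4, 0.403 and 0.412.

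Differences between 20 and 15 weeks carry the shift between the 2 distributions, whose median over all genes was 0.23 in grouped and 0.24 in isolated mice. In grouped mice the median over the members was -0.23, and 0.09 without grouped 15 weeks replicate 1. In limma 2 members rose, against 56.0% of all genes, and 3 fell, against 6.41%. Madcam1 rose by 0.56 (SE 0.06, adjusted p = 0.000117) and Pax5 by 0.44 (SE 0.05, adjusted p = 0.000172). Cd6 fell by 0.29 (SE 0.1, adjusted p = 0.0246), Cd2 by 0.63 (SE 0.22, 0.0319) and Jchain by 0.87 (SE 0.34, 0.048). Without grouped 15 weeks replicate 1, 8 members rose and 4 fell, against 52.2% and 7.1% of all genes, and Jchain no longer passed (-0.67, adjusted p = 0.121). The members that rose then were Cd8b1, Pax5, Madcam1, Pou2af1, Cd22, Cd79b, Cd5 and Ms4a1, and those that fell were Cd2, Cd3g, Cd6 and Cd27. Ms4a1 and Cd3g helped to recognise grouped 15 weeks replicate 1, so their calls without it are not independent tests. Without grouped 20 weeks replicate 2 or replicate 4, 2 members passed, against 54.5% and 59.0% of all genes, and the calls of Cd6, Cd2 and Jchain were lost. After quantile normalization over both ages, which removes the shift, 2 members rose and 6 fell with all arrays, against 20.0% and 18.4% of all genes.

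In isolated mice 11 members rose with age, against 57.3% of all genes, and 1 fell, against 9.33%. The member that fell was Jchain (-0.48, SE 0.09, adjusted p = 0.00102 in limma), a call that was lost with all 16 arrays in the fit (SE 0.27, adjusted p = 0.135). After quantile normalization, 4 members rose and 5 fell, against 27.3% and 23.4% of all genes, with Jchain down by 0.69 (adjusted p = 0.000449 in limma). Il7r rose by 0.55 (SE 0.07, adjusted p = 0.000127 in limma) and by 0.36 after quantile normalization, and without isolated 20 weeks replicate 3 by 0.49. Madcam1 rose by 0.43 (SE 0.06, adjusted p = 0.000144), Cd22 by 0.33 (SE 0.07, 0.0023) and Coro1a by 0.9 (SE 0.19, 0.00245). Cd22 rose by 0.1 after quantile normalization and did not pass (adjusted p = 0.311). The remaining members that rose before that step were Pax5, Cd8b1, Cd37, Pou2af1, Cd5, Cd4 and Ltb, by 0.16 to 0.8. Without isolated 20 weeks replicate 3, 11 rose and 4 fell, against 54.8% and 9.51% of all genes. Glycam1 (-0.34, adjusted p = 0.00093 in limma), Cd6 and Cd27 joined Jchain among those that fell. That array was recognised partly by its high Glycam1, so the fall of Glycam1 without it is not an independent test. The age comparisons use the same arrays as the housing comparisons, and their values stand side by side only.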

How the data were processed

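The deposited table holds log2 expression values of 45101 probe sets on 16 Affymetrix arrays, which the authors computed by RMA with affy (version not stated), as read from the submitters' processing notes. RMA corrects background, brings arrays to a common distribution and summarises probe sets, and here each age kept its own distribution. Symbols came from the platform annotation; 932 probe sets with several symbols and 9160 that it does not list were not named. For each gene the single-symbol probe set with the highest mean was tested. Differences were fitted with limma 3.58.1 in R 4.3.3 (eBayes with an intensity trend), each comparison of 2 groups on its own 8 arrays and the interaction on all 16, with Benjamini-Hochberg adjustment over 18193 genes and a threshold of 0.05. The fits were tested on simulated data. No arrays of a group were duplicates (smallest SD of a difference 0.115). Arrays carry no read depth. All members are named; those that passed, or the 5 of smallest p, are given in full. Alternatives were other normalizations, filters, probe sets, priors, array weights (statmod 1.5.0), a threshold of 0.1, a replicate block and leaving out each array. The members and gene lists were chosen with earlier results of these data known.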

Additional observations from a re-analysis of the deposited data

Results flagged for a closer look

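In 21 of 120 tests (30 members in 4 groups of 4 arrays), 1 array stood apart from the other 3 of its group by Dixon's criterion, which chance alone meets in about 1 of 20 groups. Members share arrays, so these tests are not independent. They include Cd3g, Ms4a1 and Glycam1, from which the lymphocyte-rich arrays were recognised, and the members were chosen with earlier results known. The count was not made over all genes. It therefore describes the arrays and cannot be set against chance. Grouped 15 weeks replicate 1 was the high array in 12: Cd3d (8.51), Cd3g (9.29), Cd2 (7.62), Cd5 (8.22), Cd8b1 (7.67), Ms4a1 (9.51), Cd22 (9.76), Cd79a (9.02), Cd79b (8.1), Cr2 (7.67), Pou2af1 (7.99) and Ighm (11.91), all as log2 levels. Isolated 20 weeks replicate 3 was high in 6: Cd3d (8.09), Cd3g (8.45), Cd79a (8.1), Cd79b (7.63), Ltb (9.13) and Glycam1 (11.54). Glycam1 at 15 weeks was not among them because grouped replicate 2 was raised as well. In grouped 20 weeks replicate 1, Il7r (8.91) and Ltb (7.94) were high, against at most 8.66 and 7.7 in the other 3 arrays. In isolated 15 weeks replicate 4, Zap70 (10.63) was high, against at most 10.25.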

How the results depend on the processing

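With all 8 arrays of a comparison, 0 members passed for housing at either age in limma. At 15 weeks the count was 1 with array weights (2.72% of all genes) and 0 to 1 when single arrays were left out (0.0% to 0.17%). The call was Jchain, and at 20 weeks the count was 0 throughout. For age in grouped mice, 5 members passed (62.5% of all genes), and 8 after quantile normalization (38.4%). With every probe set 8 passed (63.7% of probe sets), and Cd8a and Ighm had calls both ways. Filters at the 40th percentile and at the median each gave 0 (61.6% and 61.9%). With single arrays left out, 2 to 12 passed, against 54.5% to 62.0% of all genes. The count was 12 without 15-week replicate 1, and 2 without 20-week replicate 2 or 4. For age in isolated mice, 12 passed (66.6%), and 5 and 4 with these filters (71.1% and 72.8%), which keep 10 and 9 members. The interaction had 0 calls, and 1 with array weights (4.28% of all genes). Its median moved from 0.35 to -0.02 without both lymphocyte-rich arrays, a setting added once the values were known. Taking each gene's most variable probe set turned the sign for Zap70 in housing at 20 weeks (0.01) and for Cd22 with age in isolated mice (-0.02). No label ties arrays of the same replicate number together, and their correlations ran from -0.2 to 0.49. An array correlated best with its own number in 3 of 4 pairs for housing at 15 weeks, 2 at 20 weeks, and 1 and 3 for age in grouped and isolated mice, so the numbers were not taken to pair arrays. With the replicate block 0 members passed for housing at 15 weeks in limma (0.0934% of all genes). There, 9 lay at an unadjusted p under 0.05, against 3 without the block, and 14.7% of all genes did. The block gave 0 members at 20 weeks (0.0165% of all genes) and 0 for the interaction (0.044%). With age it gave 5 in grouped mice (58.1%) and 14 in isolated mice (67.9%). Leaving out arrays by the planned rule on node stroma genes was not run because 0 arrays met it. The number of arrays limits the precision, and members near the lower quartile carry little signal over background.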
